A study of Mus musculus with 12 samples.

Results

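The small proline-rich proteins were followed here through 10 of their genes, Sprr1a, Sprr1b, Sprr2b, Sprr2d, Sprr2e, Sprr2f, Sprr2h, Sprr2k, Sprr3 and Sprr4, in the bulk RNA of mouse back skin. These 10 genes were taken by name from a raw count table of 56923 Ensembl genes, in which 17 genes carry an Sprr symbol, and all 10 had enough counts to be tested, Sprr2b, Sprr2f, Sprr2k and Sprr3 only through the IMQ mice. The genes were chosen by their counts in these samples, with the response of wild-type (WT) mice to imiquimod (IMQ) in view, so values of that response are given as a description without a test. The skin came from 12 female mice aged 8 to 10 weeks, 3 in each of 4 groups. WT mice received control treatment (WT control) or 5% IMQ cream on the shaved back every day for 6 days (WT IMQ), and mice labelled as LCN2 knockout received the same treatments (KO-labelled control and KO-labelled IMQ). The study describes the latter as constitutive Lcn2-/- mice on a C57BL/6 background with WT littermates as controls, whereas the sample labels also call the genotype a knockdown. The control treatment is none in the labels and vehicle cream in the methods. IMQ is an agonist of TLR7, and repeated application to mouse skin gives psoriasis-like inflammation with thickened, scaling epidermis.

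Small proline-rich proteins are short, soluble proteins of stratified epithelia. In the outer epidermal layers, transglutaminases crosslink them to each other and to loricrin and involucrin, which builds the cornified envelope beneath the plasma membrane of the dead keratinocyte. Their genes sit in the epidermal differentiation complex, beside those for loricrin, filaggrin and the late cornified envelope proteins. SPRR1 and SPRR2 proteins are known to be raised in psoriatic, wounded and irritated epidermis, and SPRR3 is best known from the oesophagus and other internal stratified epithelia.

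The 17 Sprr genes lay within 284.7 kb of chromosome 3 (GRCm38, from 92215799 to 92500493), and the 10 described here spanned 92316620 to 92500493. Their order from the lower coordinate was Sprr2b, Sprr2d, Sprr2e, Sprr2f, Sprr2h and Sprr2k on the plus strand, then Sprr1b, Sprr3, Sprr1a and Sprr4 on the minus strand. None of the 10 overlapped another annotated gene. Because close paralogs can share reads, every stretch of 150 bases of their transcripts, the length of 1 read, was looked for in all other transcripts. None of the 10 genes had such a stretch in common with another gene. At 50 bases, 13.7% of the stretches of Sprr2b, 10.2% of Sprr2e, 4.27% of Sprr2d and 0.71% of Sprr2f were shared with other Sprr2 genes. Transcripts of Sprr2d and Sprr2e were the most alike of the 45 pairs, with 79.1% identical positions, and those of Sprr1a and Sprr1b had 65.5%. By contrast, Sprr2a1 and Sprr2a2, which are not among the 10, shared 89.6% and 89.0% of their stretches of 150 bases with other genes, and their separate counts are uncertain. The summed counts of all Sprr2 genes are therefore given beside the single genes.

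The DNA just upstream of the first exon is printed for genes that stand for the patterns described below: Sprr2b and Sprr2k, with 0 counts in every WT control mouse, Sprr2d, with the highest level of the Sprr2 genes under IMQ, Sprr2h, with the highest level of them in control skin, and the pair Sprr1a and Sprr1b, which differed widely in control skin. Each sequence (RefSeq promoters, GRCm38.p6) is written in the direction of transcription. Those of Sprr2b, Sprr1a and Sprr1b end 85, 14 and 10 bases before the RefSeq start, where the GENCODE first exon begins, and the others end at the start itself. Capitals mark TGANTCA, the core motif bound by AP-1 (Fos and Jun) factors, and the octamer ATTTGCAT, bound by POU factors.
Sprr2b (chr3:92316455-92316619, plus strand): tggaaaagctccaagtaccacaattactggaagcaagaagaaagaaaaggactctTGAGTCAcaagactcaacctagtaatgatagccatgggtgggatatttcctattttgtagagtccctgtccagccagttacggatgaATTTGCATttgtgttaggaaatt
Sprr2d (chr3:92338940-92339139, plus strand): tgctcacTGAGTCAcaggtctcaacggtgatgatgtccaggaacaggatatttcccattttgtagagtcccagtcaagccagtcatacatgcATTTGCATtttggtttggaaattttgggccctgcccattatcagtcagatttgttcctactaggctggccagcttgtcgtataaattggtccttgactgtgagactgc
Sprr2h (chr3:92385485-92385684, plus strand): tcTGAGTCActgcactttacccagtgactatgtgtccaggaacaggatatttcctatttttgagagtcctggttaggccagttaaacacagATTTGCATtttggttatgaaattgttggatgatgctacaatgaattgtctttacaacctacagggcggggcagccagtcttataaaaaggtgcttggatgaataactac
Sprr2k (chr3:92432382-92432581, plus strand): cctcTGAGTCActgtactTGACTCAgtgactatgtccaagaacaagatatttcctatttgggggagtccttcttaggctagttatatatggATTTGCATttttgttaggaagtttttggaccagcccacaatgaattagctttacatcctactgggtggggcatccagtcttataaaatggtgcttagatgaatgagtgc
Sprr1a (chr3:92485896-92486095, minus strand): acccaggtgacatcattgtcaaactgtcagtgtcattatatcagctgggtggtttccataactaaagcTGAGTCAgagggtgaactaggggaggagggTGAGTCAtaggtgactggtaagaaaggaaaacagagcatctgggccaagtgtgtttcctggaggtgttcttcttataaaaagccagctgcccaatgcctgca
Sprr1b (chr3:92438790-92438989, minus strand): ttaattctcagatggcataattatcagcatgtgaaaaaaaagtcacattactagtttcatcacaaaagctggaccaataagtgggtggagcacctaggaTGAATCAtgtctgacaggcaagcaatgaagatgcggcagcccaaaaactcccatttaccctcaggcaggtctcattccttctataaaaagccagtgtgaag
In the RefSeq promoter windows (250 bases before to 50 after the start, both strands searched), TGANTCA was found in 8 of the 10 genes, all but Sprr3 and Sprr4, and in 7.81% of 32851 mouse promoters. The octamer was found in 6 of the 10, which were the 6 Sprr2 genes, and in 1.74% of all promoters. In these 6 genes the octamer began 108 to 112 bases and the first TGANTCA 193 to 198 bases before the RefSeq start, and matches of the 2 motifs did not overlap. Sprr2k held another TGANTCA match 182 bases before the start. Those of Sprr1a lay 146 and 116 bases before it, and that of Sprr1b 111 bases. Sprr2 genes are close copies of each other, so their shared motifs are not independent, and a match of letters is not a measured site.

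Library totals ran from 16448226 to 28592110 counts, and a floor of 3 counts stood at 0.0985 to 0.202 CPM, the count scaled to a common library size. CPM values are relative to library sizes normalized by TMM. All 19 epidermal keratinocyte markers examined were detected in every group. Lcn2 counts did not fall to the floor in mice labelled knockout: the KO-labelled control mice had 320, 173 and 357 counts, and the KO-labelled IMQ mice 561, 511 and 830, against 136, 201 and 86 in WT control and 1010, 2723 and 1572 in WT IMQ mice. The label is therefore not borne out by Lcn2 counts over the whole gene, and each genotype is called by its label only. The paper lists Lcn2 among the genes lower in knockout skin under IMQ. It also measured Lcn2 RNA by RT-qPCR and probed LCN2 protein by Western blot. Over 6 other settings of the fit, the log2 fold change of Lcn2 in KO-labelled against WT mice was -1.49 to -1.40 under IMQ. In control skin it was 0.87 to 0.89. An adjusted p under 0.05 was reached in 3 of the 6 settings under IMQ and in 0 in control skin. The fold changes and adjusted p values below come from edgeR's quasi-likelihood test across 18529 genes, with Benjamini-Hochberg adjustment, and a gene was called at an adjusted p under 0.05.

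In control skin the family was uneven, with Sprr4 and Sprr1a abundant, the others much lower, and 3 of them at 0 counts in every WT control mouse. Sprr4, an envelope precursor first known from ultraviolet-irradiated skin, had 81.6, 129 and 126 CPM in the WT control mice and 147, 92.2 and 149 CPM in the KO-labelled control mice. Sprr1a had 261, 244 and 271 CPM in WT control and 249.9, 469.7 and 462 CPM in KO-labelled control. Sprr1b, of the same subfamily, was more than an order of magnitude lower, with 12.3, 3.22 and 10.2 CPM in WT control and 7.59, 12.3 and 7.50 CPM in KO-labelled control. Per kilobase of exon, the scale on which genes can be compared, the WT control means were 486 ± 115 CPM per kb for Sprr4, 321 ± 17.1 for Sprr1a, 10.3 ± 5.74 for Sprr1b, 5.46 ± 2.87 for Sprr2h, 1.92 ± 0.476 for Sprr2d, 0.666 ± 0.650 for Sprr2e and 0.247 ± 0.224 for Sprr2f (SD, n = 3). Neighbours in this order overlapped between mice for Sprr1b and Sprr2h, for Sprr2h and Sprr2d and for Sprr2e and Sprr2f. Sprr4 is annotated by 1 exon of 231 bases, so its level per kb depends on that short model. Sprr2b, Sprr2k and Sprr3 had 0 counts in all 3 WT control mice. In KO-labelled control mice Sprr2b had 1, 3 and 1 counts, Sprr2k had 2, 1 and 0, and Sprr3 had 0 in each.

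Under IMQ in WT mice, 9 of the 10 genes were higher and Sprr4 was lower, with no overlap between the groups for any of them. Over all genes tested, 14.2% were called higher and 14.3% lower in this comparison, 20.1% did not overlap with IMQ mice higher and 20.6% with them lower, and the 10 genes were listed with it in view. Sprr1a, already abundant in control skin, stood at 1138, 744 and 887 CPM, a 3.56-fold difference (log2 fold change 1.83, SE 0.37). Sprr1b stood at 1491, 863 and 1158 CPM, which was 137-fold above control (log2 fold change 7.09, SE 0.53), so that its level per kb no longer lay apart from that of Sprr1a. The genes of this pair thus reached like levels from very different starting points.

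Among the Sprr2 genes, Sprr2d reached the highest level. It had 933, 808 and 838 CPM in the WT IMQ mice against 1.66, 1.03 and 1.22 CPM in WT control, a 656-fold difference (log2 fold change 9.36, SE 0.42). Sprr2h, the leading Sprr2 gene of WT control skin, had 486, 268 and 359 CPM against 5.04, 1.63 and 5.64 CPM, a 91.1-fold difference (log2 fold change 6.51, SE 0.55). Sprr2e had 207, 169 and 192 CPM, 438-fold above control, and Sprr2f had 83.6, 91.6 and 82.4 CPM, 579-fold above control. These ratios rest on 27 control counts for Sprr2e and 9 for Sprr2f, and single control mice move them. The log2 fold change of Sprr2e was 8.77 with all mice, 8.20 without WT control mouse 2 and 9.89 without WT control mouse 1. That of Sprr2f was 9.18 with all mice, 8.55 without WT control mouse 2 and 9.81 without WT control mouse 3. Sprr2b, absent from the WT control counts, had 163, 205 and 202 CPM under IMQ, which was at least 4043-fold higher against a floor of 3 counts over the control group. Sprr2k, with 262, 94 and 309 counts (a mean of 12.4 ± 5.27 CPM, SD, n = 3), was at least 271-fold higher on the same floor. Sprr3 had 12, 14 and 10 counts under IMQ (0.727, 0.941 and 0.484 CPM), at least 14.7-fold higher, and remained the lowest of the 10. Markers of internal stratified epithelia (Krt4, Krt13 and Crnn), in which Sprr3 is usually studied, summed to between 4.57 and 6.30 CPM in the WT IMQ mice and between 1.81 and 37.7 CPM in WT control.

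Sprr4 went the other way. It had 22.6, 37.7 and 9.20 CPM in WT IMQ mice, a log2 fold change of -2.28 (SE 0.51) against WT control. It was the most abundant of the 10 per kb in WT control skin, whereas under IMQ its mean of 100.3 ± 61.7 CPM per kb (SD, n = 3) ranked 8th, above Sprr2k and Sprr3 only. The order per kb in WT IMQ mice began with Sprr1b, Sprr2d and Sprr1a (1411 ± 379, 1262 ± 96.0 and 1145 ± 248 CPM per kb, SD, n = 3), which overlapped between mice, followed by Sprr2h, Sprr2e and Sprr2b. In these bulk samples a change in the number of keratinocytes and a change in RNA per cell cannot be told apart. The summed level of the 19 keratinocyte markers lay between 8646 and 13904 CPM in WT control and between 40370 and 53009 CPM in WT IMQ mice. The 10 genes summed to a share of 0.0384% to 0.0440% of all counts in WT control and 0.289% to 0.421% in WT IMQ mice. Relative to the summed keratinocyte markers, the 10 genes went from 0.0298 to 0.0439 in WT control to between 0.0742 and 0.0857 in WT IMQ mice, and all Sprr2 genes together from between 0.000651 and 0.000992 to between 0.0461 and 0.0546.

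**Figure D1:**
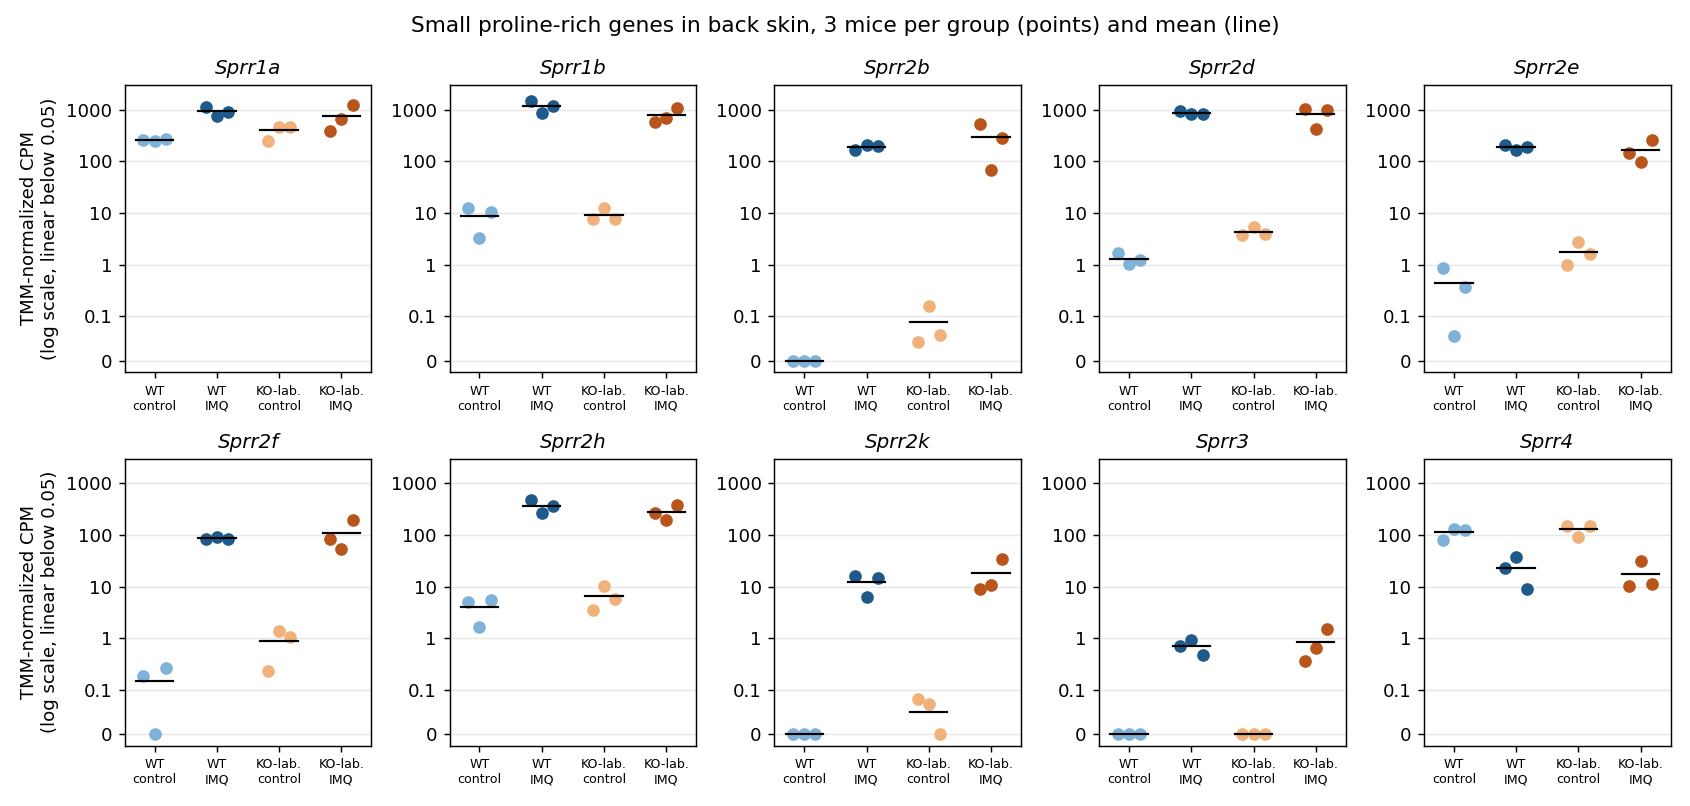
Levels of the 10 small proline-rich genes in TMM-normalized CPM (vertical axis, log scale above 0.05 and linear below), with 1 point per mouse, 3 mice per group, and a line at the group mean. Sprr4 lies lower in both IMQ groups and the other genes higher, except that the KO-labelled control and IMQ mice overlap for Sprr1a, while Sprr2b and Sprr2k lie at 0 in WT control and Sprr3 in both control groups.

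The KO-labelled mice gave the same comparison in other animals. The control mice alone had enough counts to keep 6 of the 10 genes for testing, and of these 4 (Sprr1b, Sprr2d, Sprr2e and Sprr2h) were called higher under IMQ, Sprr4 was called lower and Sprr1a was not called, where 14.1% of all tested genes were called higher and 11.2% lower. The other 4 (Sprr2b, Sprr2f, Sprr2k and Sprr3) were kept only through the IMQ mice. Such a filter leans towards genes higher under IMQ, so these 4 are given as values without a test. Sprr1b rose to 579, 697 and 1094 CPM, an 86.9-fold rise (log2 fold change 6.44, SE 0.52, adjusted p = 2.09e-05, edgeR). Sprr2d rose to 1047, 425 and 1002 CPM from 3.74, 5.38 and 3.93 CPM, a 190.2-fold rise (log2 fold change 7.57, SE 0.38, adjusted p = 1.72e-06, edgeR). Every KO-labelled IMQ mouse lay above every KO-labelled control mouse for both genes. The share of all genes that did so is not given here, and in the WT comparison it was 20.1%. Sprr2h rose 43.3-fold, from 3.61, 10.2 and 5.67 to 267, 195 and 373 CPM (adjusted p = 6.02e-05, edgeR), and Sprr2e rose 95.8-fold to 148, 95.4 and 256 CPM (adjusted p = 2.78e-05, edgeR). Sprr2f stood at 85.2, 54.5 and 195 CPM, 132-fold above control, with a log2 fold change of 7.05 that came to 6.36 without KO-labelled IMQ mouse 3.

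Sprr2b, Sprr2k and Sprr3 had 5 or fewer control counts. Sprr2b reached 529, 67.7 and 279.6 CPM, and its ratio to the 5 control counts was 4135, with a 95% counting interval of 1771 to 12736. Sprr2k reached 9.04, 10.9 and 34.8 CPM, a ratio of 435 to 3 control counts (95% counting interval 149 to 2115). Sprr3, with 6, 11 and 25 counts, was at least 19.99-fold higher against the floor. The 10 genes together went from a share of 0.0440% to 0.0694% of all counts in KO-labelled control to 0.212% to 0.421% in KO-labelled IMQ mice. Counting intervals do not cover the spread between mice, which was wide for these genes. Sprr4 fell to 10.3, 30.9 and 11.03 CPM, and the log2 fold change came to -2.89 (SE 0.52, edgeR's adjusted p = 0.00287), or -3.60 without KO-labelled IMQ mouse 2. Sprr1a did not pass the test: it had 379.9, 667 and 1203 CPM under IMQ, the first of these within the range of the KO-labelled controls, and the log2 fold change came to 0.93 (SE 0.36, edgeR's adjusted p = 0.0800). Without KO-labelled IMQ mouse 1 it was 1.25 with an adjusted p of 0.0195 in edgeR, and DESeq2, which called 13.8% of genes higher here, gave an adjusted p of 0.0356 with all mice. Markers of other cells differed between these groups too. All 10 hair follicle markers were called lower (sums of 209 to 8572 CPM in KO-labelled control and 1.14 to 13.5 CPM in KO-labelled IMQ mice), and all 8 neutrophil markers tested were called higher (10.4 to 31.3 against 197 to 503 CPM). Of 8 fibroblast markers 5 were called higher (10909 to 12031 against 20351 to 21114 CPM), and of the 19 keratinocyte markers 11 were called higher and 1 lower (sums of 9299.5 to 12609.8 against 24131 to 36250 CPM). Markers kept for testing only through the group where they were high were not set apart, so these calls are a description. The part of all these markers in the values of the small proline-rich genes was not tested.

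The make-up of the Sprr2 counts, a measure within each library, differed between control and IMQ skin. Its counting error is larger in control skin, where the summed Sprr2 counts were 233, 131 and 234 in WT control mice. KO-labelled control mice had 570, 544 and 467, against 19738 or more in every IMQ mouse. Sprr2h took the largest share in WT control mice, with 46.8%, 29.0% and 45.3% of the summed Sprr2 counts, and 18.2%, 12.2% and 15.5% in WT IMQ mice. Sprr2d took 15.5%, 18.3% and 9.83% in WT control and 34.9%, 36.7% and 36.0% in WT IMQ mice, where it came first. KO-labelled mice had Sprr2h at 19.3%, 35.3% and 27.2% in control and 10.8%, 16.9% and 12.8% under IMQ, and Sprr2d at 20%, 18.6% and 18.8% in control and 42.3%, 36.8% and 34.4% under IMQ. In KO-labelled control mouse 1, Sprr2d already took a slightly larger share than Sprr2h. Sprr2b took between 6.08% and 9.32% in WT IMQ mice, but 21.3%, 5.87% and 9.60% in the KO-labelled IMQ mice, so that mouse 1 stood apart.

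**Figure D2:**
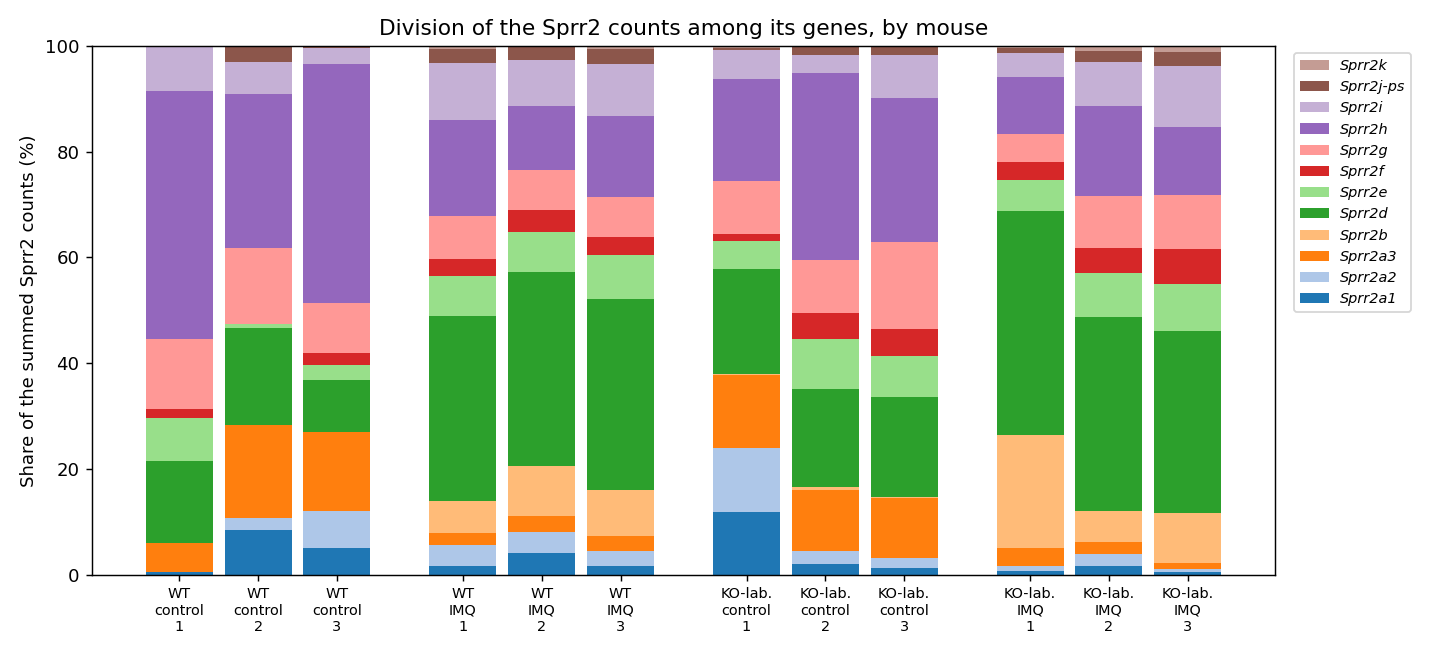
Share of the summed Sprr2 counts (vertical axis, %) taken by each Sprr2 gene, with 1 bar per mouse and 3 mice per group. Sprr2h is the largest share in WT control mice (29.0% to 46.8%) and Sprr2d in all 6 IMQ mice (34.4% to 42.3%).

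Between the IMQ groups, none of the 10 genes was called in either direction, and none had an unadjusted p under 0.05 in edgeR. The background was 2.19% of tested genes called higher and 2.60% called lower, and 12.5% and 14.5% at an unadjusted p under 0.05. DESeq2 called none of the 9 to which it gave an adjusted p, against 7.14% of genes higher and 7.38% lower. Values overlapped between the groups for all 10, while 16% of tested genes did not overlap with KO-labelled mice higher and 17.3% with them lower. This comparison shares its WT IMQ mice with the one in view when the genes were listed. The log2 fold changes ran from -0.57 for Sprr1b (95% confidence interval -1.46 to 0.32) to 0.62 for Sprr2b (-0.61 to 1.86). The narrowest interval was that of Sprr2d, at -0.06 (-0.68 to 0.56). For the summed Sprr2 counts it was -0.14 (-0.88 to 0.60), with 2678, 2205 and 2325 CPM in WT IMQ and 2478, 1154 and 2913 CPM in KO-labelled IMQ mice. Without KO-labelled IMQ mouse 2 the sum differed by 0.17. The intervals of the other 9 genes allow differences of 2-fold or more, so the absence of a call does not show equal levels.

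The spread among the KO-labelled IMQ mice was wide. The coefficient of variation among 3 mice was larger in KO-labelled IMQ than in WT IMQ mice for all 10 genes, with medians of 61.0% and 24.2%. Over all tested genes it was larger in 42.1%, with medians of 14.3% and 17.6%. Sprr2d varied by 42.1% against 7.6%, Sprr2f by 66.3% against 5.8% and Sprr2b by 79.0% against 12.4%, while the gap was small for Sprr1b (34.1% against 26.9%), Sprr2h (32.2% against 29.4%) and Sprr4 (67% against 61.6%). Between the control groups it was larger in KO-labelled mice for 2 of the 7 genes with counts in both groups, Sprr1a and Sprr4, with medians of 31.7% and 52.6% in WT mice, and for 46% of all tested genes. These are descriptions of 3 mice each, and the 10 genes share those mice. KO-labelled mouse 1 had the highest Sprr2b and Sprr2d and the lowest Sprr1a, Sprr1b, Sprr2k, Sprr3 and Sprr4 of its group. Mouse 2 had the lowest Sprr2b, Sprr2d, Sprr2e, Sprr2f and Sprr2h and the highest Sprr4, and mouse 3 had the highest Sprr1a, Sprr1b, Sprr2e, Sprr2f, Sprr2h, Sprr2k and Sprr3.

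Other gene lists were read in the same comparison, and differences between lists were not tested. Of the 19 keratinocyte markers, 5 were called lower in KO-labelled IMQ mice and 15 had an unadjusted p under 0.05. Their median log2 fold change was -0.71, and the largest difference was that of Dsg3, a desmosomal cadherin (-1.09, adjusted p = 0.0465, edgeR), a call kept in only 1 of the 6 fits that each lack 1 IMQ mouse, the fit without WT IMQ mouse 2. The stress keratins Krt6a, Krt6b, Krt16 and Krt17, keratins of activated epidermis, had a median of -1.29, with none called by edgeR, 3 of 4 at an unadjusted p under 0.05 and 3 called lower by DESeq2. Of 8 fibroblast markers, 3 were called higher, with a median of 0.78. The median of the 10 small proline-rich genes was -0.12, against -0.02 over all genes tested. Summed keratinocyte markers lay between 24131 and 36250 CPM in KO-labelled IMQ mice, below the range of 40370 to 53009 CPM in WT IMQ mice, and summed fibroblast markers between 20351 and 21114 CPM, above 10393 to 11051 CPM. Relative to the keratinocyte markers, the 10 genes came to 0.0843, 0.0930 and 0.184 in the KO-labelled IMQ mice and to 0.0857, 0.0791 and 0.0742 in WT IMQ mice, which overlapped. The part of these markers in the comparison of the Sprr genes was not tested. Of the other Sprr genes, Sprr2a1 (45.7, 91.2 and 39.2 CPM in WT IMQ, 19.6, 18.9 and 15.2 CPM in KO-labelled IMQ) and Sprr2a2 (105, 88.0 and 64.3 CPM against 22.0, 26.1 and 16.7 CPM) were lower without overlap. Their log2 fold changes were -1.71 (adjusted p = 0.0831, edgeR) and -1.99 (adjusted p = 0.0546, edgeR). Fitted on the IMQ mice alone, the adjusted p in edgeR was 0.0196 and 0.0111, and the share of all genes called there is not given. Of 5 other settings only this fit fell under 0.05, and DESeq2 called neither gene. In fits that each lack 1 IMQ mouse, edgeR gave an adjusted p of 0.163 to 0.232 and of 0.0638 to 0.221. Their shared sequence leaves the separate counts of these 2 genes uncertain.

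**Figure D3:**
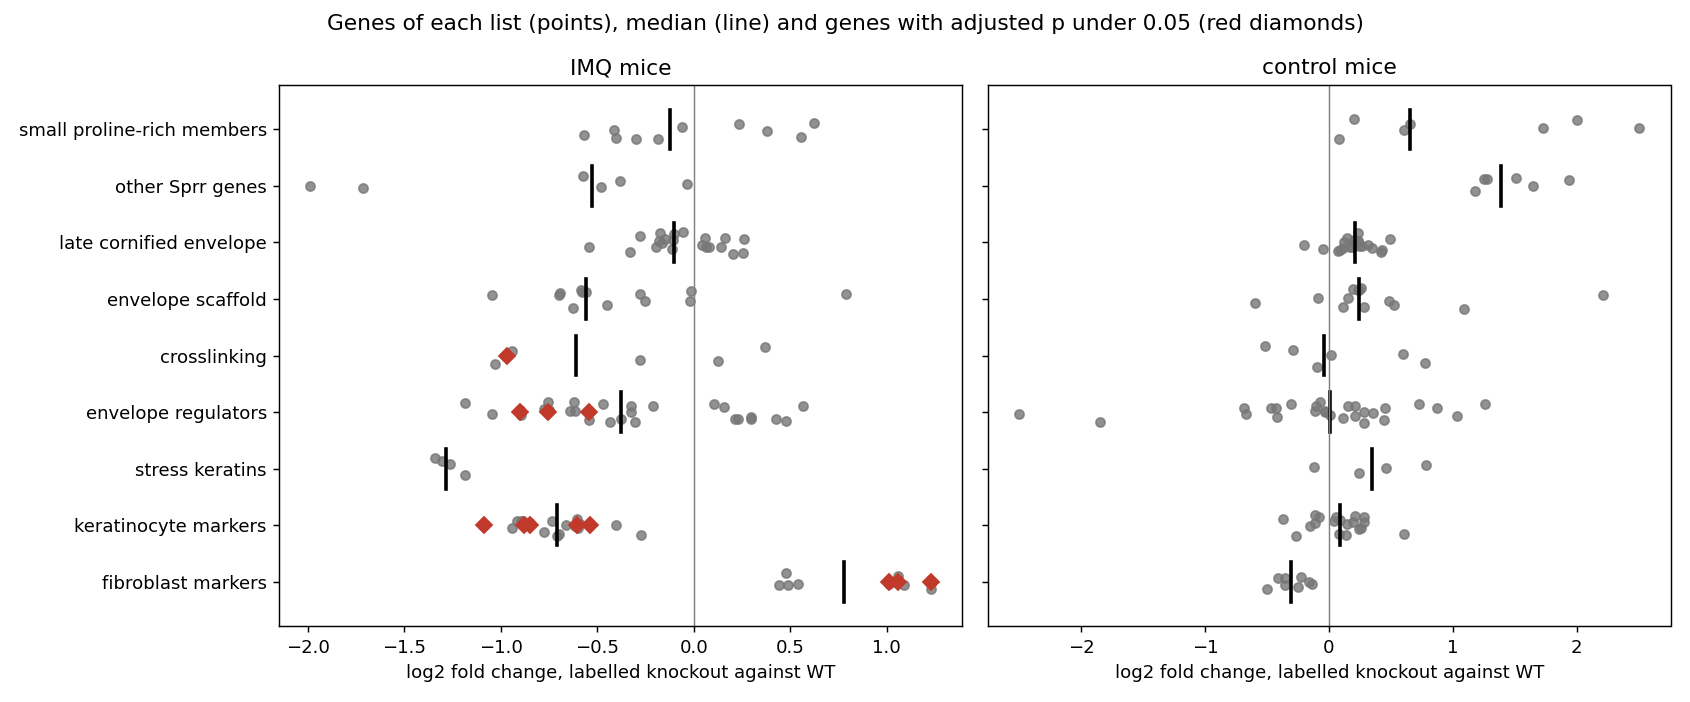
Log2 fold change of KO-labelled against WT mice (horizontal axis) for the genes of each list (points), with the list median (line), in IMQ mice (left) and control mice (right). Red diamonds have an adjusted p under 0.05 in edgeR, and Sprr2b, Sprr2k and Sprr3, with at most 5 counts over the 6 control mice, are left out on the right. In IMQ mice the small proline-rich genes lie around 0, with a median of -0.12, while the keratinocyte markers lie below 0, with a median of -0.71.

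In control skin, the Sprr2 genes were higher in KO-labelled than in WT mice by values that did not pass the edgeR test after adjustment. Of all tested genes 0.0054% were called higher here, which is 1 gene, and 0.0054% lower, and none of the 10 was called. Of the 10, 3 had an unadjusted p under 0.05 with KO-labelled mice higher, against 2.65% of all genes, and all 3 also differed by more than 2-fold, against 1.35%. These were Sprr2d (3.31-fold, log2 fold change 1.73, SE 0.35, adjusted p = 0.250, edgeR), Sprr2e (4.02-fold, log2 fold change 2.01, SE 0.68, adjusted p = 0.639, edgeR) and Sprr2f (5.68-fold, log2 fold change 2.51, 95% confidence interval 0.28 to 4.73, adjusted p = 0.717, edgeR). For Sprr2b, Sprr2d and Sprr2e every KO-labelled control mouse lay above every WT control mouse, as for 4.19% of all genes. For Sprr2b this rests on 1, 3 and 1 counts against 0 in each WT control mouse, at or below the floor of 3 counts. Sprr2e had 0.878, 0.0430 and 0.372 CPM in WT control and 0.985, 2.77 and 1.61 CPM in KO-labelled control mice, and Sprr2f had 0.185, 0 and 0.266 CPM against 0.230, 1.39 and 1.07 CPM. The log2 difference of Sprr2e came to 3.13 without WT control mouse 1 and 1.45 without WT control mouse 2, and that of Sprr2f to 3.14 without WT control mouse 3 and 1.90 without WT control mouse 2. DESeq2, which called 0.325% of genes higher, called 1 of the 10, Sprr2d, with an adjusted p of 0.000366. In edgeR its adjusted p was between 0.110 and 0.759 over the other settings and the 6 fits that each lack 1 of these mice.

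The summed Sprr2 counts came to 10.8, 5.63 and 12.4 CPM in WT control and 18.7, 29.0 and 20.9 CPM in KO-labelled control mice, 2.38-fold higher (log2 fold change 1.25, SE 0.35, 95% confidence interval 0.48 to 2.02). Their adjusted p was 0.501 in edgeR and 0.0381 in DESeq2. Sprr1b differed by 0.08 on the log2 scale (-0.85 to 1.02), and in the other direction without WT control mouse 2 (-0.29) or KO-labelled control mouse 2. Sprr1a differed by 0.61 (-0.18 to 1.39), Sprr2h by 0.66 (-0.38 to 1.69) and Sprr4 by 0.20 (-0.85 to 1.26). Both groups had 0 counts of Sprr3, so no fold is given. The keratinocyte markers had a median of 0.09 in this comparison, with none called by edgeR or DESeq2 and none at an unadjusted p under 0.05 in edgeR. Hair follicle markers varied widely among control mice of either label, with sums of 11.1 to 2807 CPM in WT control and 209 to 8572 CPM in KO-labelled control. Their part in the control comparison was not tested.

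The difference between the IMQ responses, KO-labelled minus WT, was negative for all 9 genes that could be fitted, of which Sprr2b and Sprr2k rest on 0 WT control counts, and edgeR called none (background 1.37% called positive and 0.783% negative). It was -1.79 for Sprr2d (SE 0.45, 95% confidence interval -2.77 to -0.80, adjusted p = 0.0613, edgeR) and -2.19 for Sprr2e (SE 0.80, adjusted p = 0.133, edgeR). These 2 had an unadjusted p under 0.05, as did 11.9% of all genes in that direction, and a difference above 2-fold as well, as did 4.91%. For the summed Sprr2 counts the difference was -1.39 (SE 0.49, adjusted p = 0.121, edgeR), and for Sprr1a, Sprr1b and Sprr4 it was -0.90 (SE 0.51), -0.65 (SE 0.59) and -0.61 (SE 0.69). DESeq2, which called 4.88% of genes negative, gave an adjusted p of 0.00340 for Sprr2d and 0.0386 for the sum. Without WT IMQ mouse 2, edgeR called Sprr2d, with an adjusted p of 0.0445. The difference in response of Sprr2d is made up of -0.06 between the IMQ groups and 1.73 between the control groups. All 4 groups enter this difference, the WT mice used in listing the genes included.

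**Figure D4:**
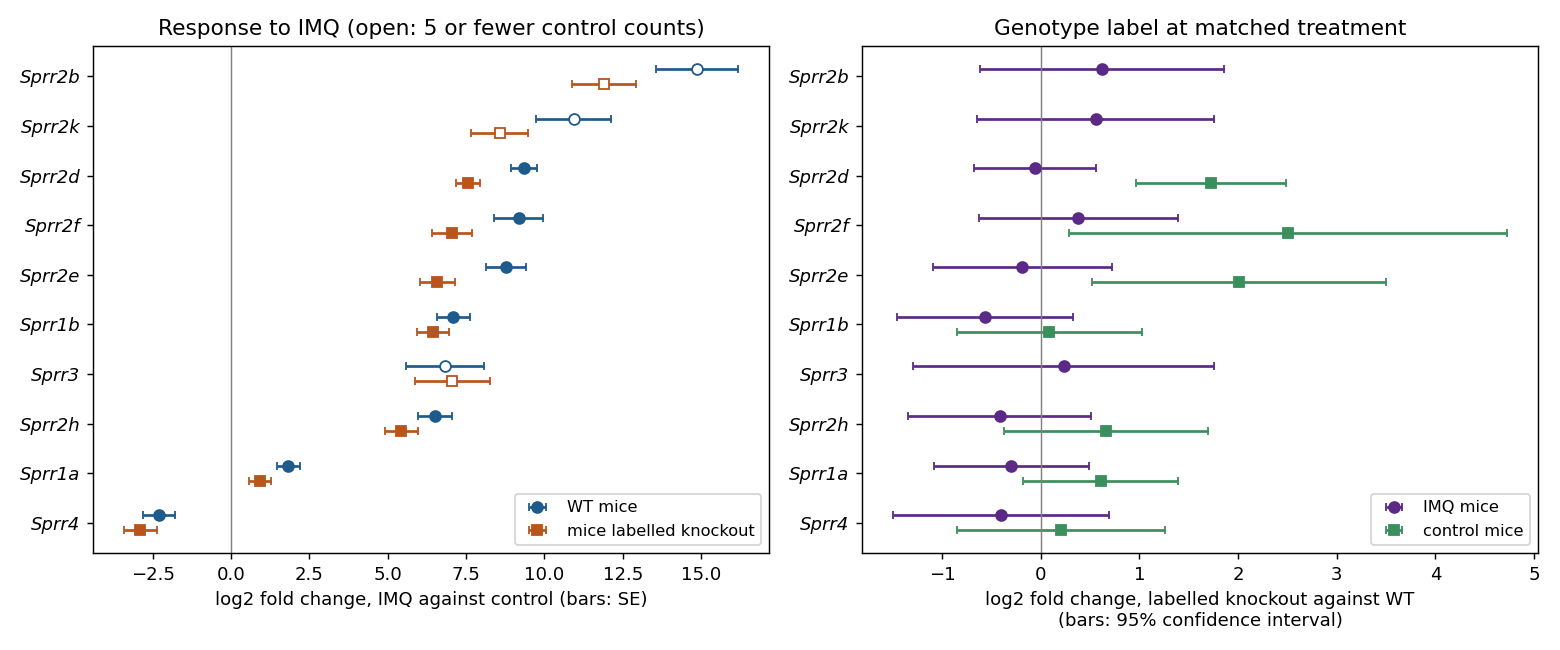
Log2 fold changes of the 10 genes. Left, IMQ against control within WT mice (circles) and KO-labelled mice (squares) with SE, where open symbols rest on 5 or fewer control counts and depend on the fit. Right, KO-labelled against WT mice among IMQ mice (circles) and control mice (squares) with 95% confidence intervals, where no square is drawn for Sprr2b, Sprr2k and Sprr3, with at most 5 counts over the 6 control mice. All intervals among IMQ mice include 0, and those of Sprr2d, Sprr2e and Sprr2f among control mice lie above 0 before adjustment over all genes.

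Partners of these proteins in the envelope were read from lists in the KO-labelled response to IMQ, against the background of 14.1% higher and 11.2% lower. Of 21 late cornified envelope genes, 15 rose and 1 fell, from Lce3b (log2 fold change 9.09) to Lce1m (-2.10). Among them, Lce3a, Lce3b, Lce3e and Lce3f were kept for testing only through the IMQ mice, which leans towards genes higher under IMQ. The same holds for Fosl1, named below. Lce3b had 0, 0.160 and 0.223 CPM in KO-labelled control, and the rises of these genes carry no test. Of 13 scaffold genes, which include loricrin, involucrin and filaggrin, 9 rose, with the largest value for Rptn, which encodes repetin (4.36), and 1 fell, Flg2, of the filaggrin family (-3.54, SE 0.41, adjusted p = 0.000202, edgeR), named after its value was seen. The smallest value was that of Crnn, which encodes cornulin, at -4.77, and it did not pass the test (adjusted p = 0.0590, edgeR). Of 6 genes of crosslinking and its control, 4 rose, led by the transglutaminase Tgm3 (2.60), and 1 fell, Cst6, which encodes an inhibitor of cysteine proteases (-1.51). The value of Tgm3 came to 3.88 without KO-labelled control mouse 2, and its call was lost in edgeR without KO-labelled control mouse 3 (adjusted p = 0.0528), with no filter on low counts (adjusted p = 0.0624) and when only the compared groups were fitted. That of Cst6 was lost in edgeR without KO-labelled IMQ mouse 3 (-1.36, adjusted p = 0.0506). Of 27 transcription factors that act on envelope genes, 14 rose and 2 fell, from Fosl1, a subunit of AP-1 (2.65), to Gata3 (-1.82). Between the IMQ groups, no late cornified envelope gene was called by edgeR or DESeq2 or had an unadjusted p under 0.05 in edgeR, as for the 10 small proline-rich genes. No scaffold gene was called by edgeR, 1 was higher and 5 were lower at an unadjusted p under 0.05, and DESeq2 called 2 of the 13 lower. Of all tested genes, edgeR called 2.19% higher and 2.60% lower between the IMQ groups, and 12.5% and 14.5% had an unadjusted p under 0.05. DESeq2 called 7.14% higher and 7.38% lower. In that comparison 1 crosslinking gene, Tgm1 (-0.97, adjusted p = 0.0347, edgeR), and 3 of the transcription factors, Grhl3 (-0.90), Klf4 (-0.54) and Klf5 (-0.76), were called lower, and these 4 were named after their values were seen. The extremes of the lists there did not pass the edgeR test. The smallest were -0.54 for Lce6a, -1.05 for Hrnr, -1.03 for Tgm3 and -1.19 for Elf3, and the largest 0.26 for Lce1a2, 0.79 for Lor, 0.37 for Ctsl and 0.56 for Jund.

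Genes with a pattern most like that of the family were sought among those with a mean of at least 10 CPM, by Pearson's r of log2 CPM with the mean log2 CPM of the 10 genes over the 12 mice. The 8 nearest were Lce3d, S100a8, Klk13, Stfa2, Cnfn, S100a9, Lce3e and Krt16, with r from 0.991 to 0.993. Most of this likeness is the step between the 6 control and the 6 IMQ mice. Within the 6 IMQ mice r was 0.885 for Lce3d and 0.844 for Lce3e, late cornified envelope genes, but 0.480 for S100a8 and 0.523 for Krt16. Within the 6 control mice it was 0.930 for Krt16 and 0.929 for Cnfn. Among the 10 genes themselves, the 6 IMQ mice gave r of 0.903 for Sprr1a with Sprr1b, 0.887 for Sprr2b with Sprr2d and 0.872 for Sprr1b with Sprr2h, but -0.326 for Sprr1a with Sprr2b and -0.638 for Sprr2b with Sprr4. Genes of 1 mouse share its library and its skin sample, so these values describe the mice and carry no test.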

How the data were processed

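RNA of back skin from 12 mice was sequenced by the authors as ribosome-depleted libraries with paired reads of 150 bases. The authors deposited raw counts of reads per Ensembl gene, without normalization. The submitters' processing notes name HISAT and the build mm8, and the counter, the annotation and the use of strand are not given in the sources used here. Names and positions were taken from GENCODE M21 on GRCm38, which holds 52073 of the 56923 identifiers (91.5%). If the counts were made on another build, gene models can differ, and reads of paralogs may have been split or dropped.

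Groups and replicate numbers came from the sample labels. Nothing in the labels ties the animals to batches. After TMM normalization, edgeR 4.0.16 (limma 3.58.1, R 4.3.3) fitted a robust quasi-likelihood model with 1 mean per group to all 12 mice. It was applied to 18529 genes kept by filterByExpr at a minimum count of 10 and a minimum total of 15, with Benjamini-Hochberg adjustment over all of them and a threshold of 0.05. SE is the log2 fold change divided by the square root of F. Where a group had 0 counts, the fold is a lower bound against 3 counts over the group. Where it had 5 or fewer, the ratio has an exact 95% counting interval. These bounds reflect counting error alone and take each read as independent. Amplified reads lacking molecular identifiers may stem from 1 molecule, so the counting error itself can be larger than these bounds. P-values measure the spread between these mice. The depth per mouse lay between 16448226 and 28592110 counts.

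The 10 genes, the gene lists and the tests were chosen with earlier results of these data known. Named were the 10 genes, the other Sprr genes, Lcn2, the genes with the largest and smallest log2 fold change of a list in the KO-labelled response and between the IMQ groups, and the 8 genes most like the family. Extremes of the lists of fibroblast, neutrophil, hair follicle, muscle, fat and internal epithelium markers, and of the keratinocyte and stress keratin lists in the KO-labelled response, are left unnamed. Alternatives were RLE size factors, DESeq2 1.42.0, no filter, at least 10 counts in every library, only the groups compared, the replicate number as a block, a fold above 2 with an unadjusted p under 0.05, and each mouse left out in turn. Tested on simulated counts for WT IMQ against WT control over 18529 genes, with 200 changed 4-fold, the edgeR fit recovered 193 with 5 false calls, and DESeq2 recovered 196 with 18 false calls. The changed genes were drawn only from those above a minimum mean count. These rates therefore do not cover genes with few control counts, as most Sprr2 genes have. Promoter sequences are from RefSeq (GRCm38.p6). Plots were made in Python 3.11.15 (matplotlib 3.10.9).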

Additional observations from a re-analysis of the deposited data

How the results depend on the processing

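Of the 593 values of single small proline-rich genes under alternatives, 577 kept their direction and side of the threshold, 5 passed it newly and 11 changed sign, all with 1 mouse left out. The counts of called genes and the summed Sprr2 counts changed in 10 of 191 cases. With DESeq2, 1 of the 10 genes was called higher between the control groups and 1 was called lower in the difference of the responses, and the summed Sprr2 counts were called there, at 1.26 and -1.39. With at least 10 counts in every library, only Sprr1a, Sprr1b, Sprr2d, Sprr2h and Sprr4 were left to test. The genes called higher in the KO-labelled response to IMQ then fell to 3. In fits with this filter or without 1 mouse, the share of all genes called is not given. With a fold above 2 and an unadjusted p under 0.05, 3 were higher between the control groups and 2 lower in the difference of the responses. With each mouse left out, the number called lower in that difference lay between 0 and 1 (1 without WT IMQ mouse 2), and the number called higher in the KO-labelled response between 8 and 9, where 4 of the 10 genes were kept for testing only through the IMQ mice.

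Between the IMQ groups, leaving out 1 mouse turned the sign of values whose adjusted p stayed above 0.05 throughout. The log2 fold change of the summed Sprr2 counts then lay between -0.40 and 0.17, that of Sprr1a between -0.81 and 0.023, Sprr2b between -0.13 and 1.09, Sprr2d between -0.27 and 0.26, Sprr2e between -0.64 and 0.10, Sprr2f between -0.29 and 0.71, Sprr2k between -0.31 and 0.89, Sprr3 between -0.49 and 0.59 and Sprr4 between -1.11 and 0.14. For Sprr2g it lay between -0.61 and 0.21, Lce1a2 between -0.010 and 0.48, Lce1m between -0.17 and 0.60, Cst6 between -0.55 and 0.20, Gata3 between -0.059 and 0.20 and Krt15 between -0.87 and 0.082. Between the control groups Sprr1b lay between -0.29 and 0.45. The cause was not tested.

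Mice are numbered 1 to 3 in each group, but same-numbered mice are different animals, and their deviations from the group means correlated between -0.53 and 0.18. With the replicate block, none of the 10 genes was called between the IMQ groups, between the control groups or in the difference of the responses. In the KO-labelled response 8 were called higher and 1 lower, where 4 of the 10 were kept for testing only through the IMQ mice. The WT response carries no test here, and the share of all genes called with the block is not given. With this block the summed Sprr2 counts differed by 8.02, 6.47, -0.20, 1.34 and -1.54 on the log2 scale for WT and KO-labelled responses, between the IMQ groups, between the control groups and for the difference of the responses. Depth limits Sprr2b, Sprr2k and Sprr3 in control skin, where 3 counts are 0.0985 to 0.160 CPM.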
